A study of Mus musculus with 6 samples.

Results

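Retinoic acid signalling was followed in activated CD8 T cells through 9 genes, *Crabp1*, *Crabp2*, *Rara*, *Rarb*, *Rarg*, *Rxra*, *Rxrb*, *Cyp26b1* and *Rdh10*. On the Affymetrix mouse genome array used these genes are read by 13 of the 45101 probe sets, counting only probe sets annotated to 1 gene, and all 13 were measured and tested with no filter on dim signal. The genes were picked with the difference between GFP-KLF2 and evGFP cells already known, above all that of *Crabp2*. Their differences between these groups are therefore given as a description, with no p for a single member.

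The cells came from spleens of C57BL/6 mice aged 8 to 12 weeks that carry the P14 transgenic T cell receptor, which recognises the gp33-41 peptide of LCMV. Splenocytes were cultured with the peptide for 48 hours, transduced by retrovirus 18 hours after its addition, and kept in IL-2 for 48 further hours. The GFP-KLF2 cells received a fusion of GFP and KLF2, which keeps up a transcription factor of resting T cells that activation lowers, and the control cells the empty vector, evGFP. Both groups were thus activated, transduced and sorted as GFP-positive cells, and each has 3 arrays labelled as biological replicates 1 to 3.

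Retinoic acid is made from vitamin A in steps of oxidation, first by retinol dehydrogenases such as RDH10 and then by retinal dehydrogenases. In the cell it is bound by CRABP1 and CRABP2, and CRABP2 is known to hand it to the retinoic acid receptors RARα, RARβ and RARγ in the nucleus. These bind DNA as pairs with an RXR, and CYP26 enzymes break retinoic acid down. In T cells retinoic acid from dendritic cells of the gut is known for inducing homing receptors for the intestine.

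A textbook binding site of RAR and RXR is a pair of hexamers in the same orientation, 5 bases apart. The promoters of 7 of the 9 members could be read from RefSeq (GRCm38.p6). There was no window for *Crabp2* or *Rdh10*, so their promoters were not searched here for any motif. The 7 gave 13 windows, from 250 bases before to 50 after a start of transcription. On both strands they were searched for the hexamer AGGTCA or its relatives (AGTTCA with a changed base, GGGTCA with another, GGTTCA with both), followed by itself or a relative at a spacing of 1, 2 or 5 bases. A match was found for 1 member, *Rarb*, at a spacing of 5, a motif held by 0.0974% of 32851 such windows. Among 64 other retinoid genes with a promoter, 2 were found to hold a repeat, and one of them was *Cyp26a1*, whose enzyme degrades retinoic acid. For these genes windows on 1 chromosome were left out of the search, while the 64 would include any genes on it. The sites of *Rarb* (chr14:16575508-16575534, minus strand, repeat at -53 to -37 from the start) and *Cyp26a1* (chr19:37697771-37697797, plus strand, repeat at -32 to -16 from the start) are shown because both genes are classical targets of the receptors. The chromosome coordinates are those of the printed stretch, which adds 5 bases on each side of the repeat. Each is written 5′ to 3′ on the strand of its gene, with the 2 hexamers in capitals, which in *Cyp26a1* are read from the opposite strand.
Rarb: ggaagGGTTCAccgaaAGTTCActcgc
Cyp26a1: aaagaTGAACTttgggTGAACTaattt

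KLF factors are known to bind CACCC boxes. The letters CACCC were found on either strand in 11 of the 13 windows, from 6 of the 7 member genes. Of all windows 57.5% held them. Read from the opposite strand, they also occur in the printed repeat of *Cyp26a1*, where they overlap its second hexamer. A match is a description of the sequence and not evidence of binding. The *Rarg* windows are shown since *Rarg* is the receptor gene whose groups did not overlap. Each of its 2 promoters (chr15, minus strand) held 1 match, printed in capitals.
Rarg, chr15:102257613-102257637: ccccagccacCACCCcccccagccc
Rarg, chr15:102246498-102246522: ctccaggcccCACCCccatccctct

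All levels below are log2 intensities of the deposited RMA values. A difference is GFP-KLF2 minus evGFP, fitted with limma, and it passed the test at an adjusted p under 0.046 over 45037 probe sets. The number of arrays limits the precision, and an exact permutation test of 3 arrays against 3 cannot go below p = 0.1. In RNA from pooled cells, fewer cells that express a gene and less RNA per cell cannot be told apart.

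*Crabp2* and *Rarg* were higher in GFP-KLF2 cells, and the other 7 genes had no probe set that passed the test. Of the 13 member probe sets, 3 were higher and passed, the one of *Crabp2* and both of *Rarg*, beside 4.76% of all probe sets. By limma 0 were lower and passed, beside 6.39% of all probe sets. At an unadjusted p under 0.05 by limma 0 were lower, beside 3219 of 18194 genes taken by their brightest probe set. The groups did not overlap at these same 3 probe sets, all with GFP-KLF2 above evGFP, beside 12.5% of all probe sets with GFP-KLF2 above, 17.3% with it below and 29.7% in either direction. Since the members were picked on this contrast, nothing is read from these counts. The median log2 fold change was 0.09 over the member probe sets and -0.01 over all probe sets tested.

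**Figure D1:**
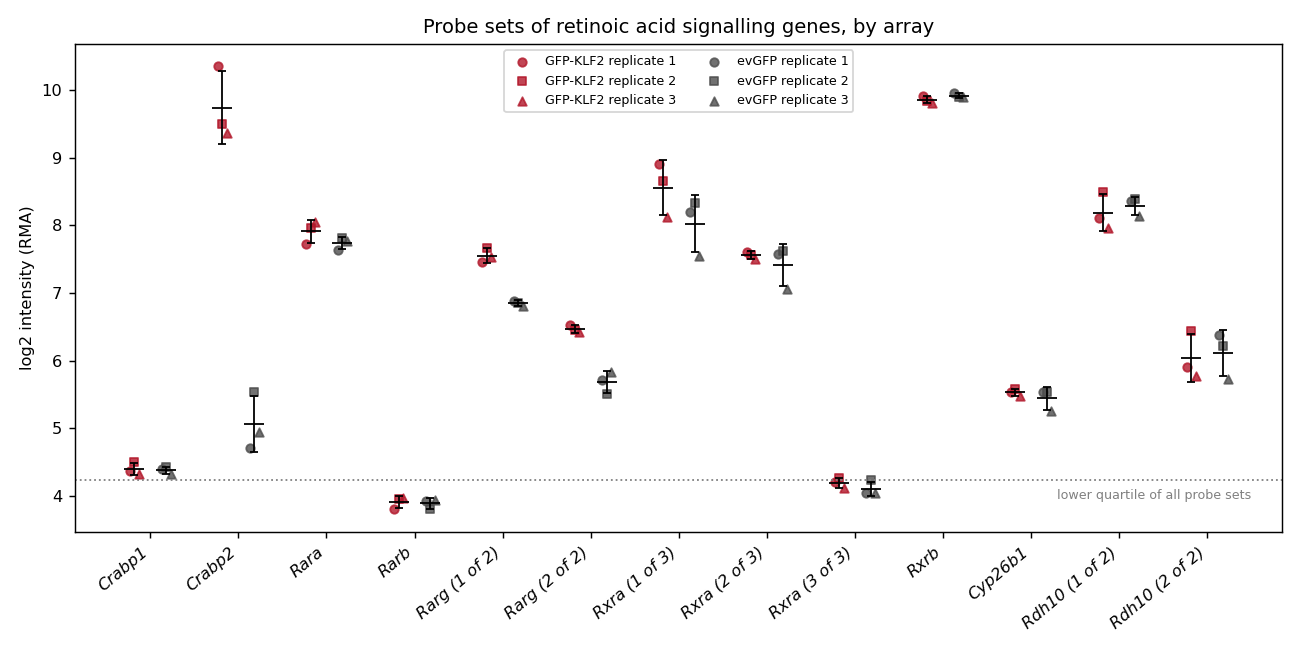
Log2 RMA intensity of each of the 13 member probe sets in every array, GFP-KLF2 in red and evGFP in grey, with the mean and SD of 3 arrays as black bars and the lower quartile of all probe sets as a dotted line. The groups lie apart for Crabp2 and for both probe sets of Rarg and overlap for the other 10 probe sets.

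*Crabp2* (Entrez gene 12904), the carrier of retinoic acid to its receptors, had 10.35, 9.50 and 9.36 in the GFP-KLF2 arrays, against 4.71, 5.53 and 4.95 in the evGFP arrays. All 3 GFP-KLF2 arrays were far above all evGFP arrays, and within GFP-KLF2 replicate 1 was the highest. The means were 9.74 ± 0.53 in GFP-KLF2 and 5.06 ± 0.42 in evGFP cells (SD, n = 3 each), which differ by 4.68 log2 units with a standard error of 0.29 and 95% limits of 3.99 and 5.36, or 25.6-fold. The evGFP signal lay below the median of each evGFP array (5.64 to 5.67), and the deposited values carry no detection call, so the signal is not shown to be above background and the fold depends on it. With the same limit, *Crabp2* stood at place 5 of 18194 genes by log2 fold change, each gene taken by its brightest probe set. The differences between arrays with the same replicate number were 5.64, 3.98 and 4.41. With any 1 array left out the log2 fold change was 4.37 to 4.91. Only 1 probe set reads this gene.

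*Crabp1*, which encodes the other cytosolic binding protein and is linked to the turnover of retinoic acid, did not show the pattern of *Crabp2*. Its level was 4.37, 4.50 and 4.32 in GFP-KLF2 and 4.40, 4.42 and 4.32 in evGFP arrays. These values lie close to the lower quartile of probe sets (4.18 to 4.25 over the 6 arrays), where a change in signal is hard to see. The log2 fold change was 0.02 with a 95% confidence interval of -0.17 to 0.21.

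The 3 receptor genes of the RAR family differed in their values. *Rarg* (Entrez gene 19411), which encodes RARγ, had 7.46, 7.67 and 7.53 in GFP-KLF2 arrays at its brighter probe set, against 6.88, 6.85 and 6.80 in evGFP arrays. At its dimmer probe set it had 6.53, 6.45 and 6.42 in GFP-KLF2 and 5.71, 5.51 and 5.83 in evGFP arrays. Every GFP-KLF2 array was thus above every evGFP array at both probe sets. The log2 fold changes were 0.71 (standard error 0.08) and 0.79 (standard error 0.10), or 1.63-fold and 1.73-fold, and the differences within replicate numbers were 0.58 to 0.81 and 0.59 to 0.94. With any 1 array left out the log2 fold changes were 0.65 to 0.75 and 0.70 to 0.86. These runs use the arrays on which the members were picked, so the ranges are a description. Both probe sets are of a type that can read several transcripts of the gene.

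*Rara*, which encodes RARα, had 7.72, 7.96 and 8.05 in GFP-KLF2 and 7.64, 7.81 and 7.77 in evGFP arrays. The groups overlapped, and the log2 fold change of 0.17 had a confidence interval of -0.07 to 0.42, so that a change as large as that of *Rarg* lay outside it. *Rarb*, which encodes RARβ and carries the printed repeat, had 3.81, 3.95 and 3.97 in GFP-KLF2 and 3.93, 3.80 and 3.94 in evGFP arrays. In every array these levels were below the quartile named above, and the log2 fold change was 0.02 (-0.17 to 0.22).

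Of the RXR partners, *Rxra*, which encodes RXRα, had a larger difference at its brightest probe set than at the others. There it had 8.90, 8.65 and 8.12 in GFP-KLF2 arrays, against 8.19, 8.33 and 7.54 in evGFP arrays. The lowest array of each group was replicate 3, so that the groups overlapped although each GFP-KLF2 array exceeded the evGFP array of its number, by 0.72, 0.32 and 0.58. The log2 fold change of 0.54 (-0.06 to 1.13) did not pass, while with replicate numbers entered as a block this probe set passed and the count of member probe sets that were higher was 4. Without single arrays it ranged from 0.30 to 0.76.

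The second probe set of *Rxra* had 7.61, 7.56 and 7.5 in GFP-KLF2 and 7.57, 7.62 and 7.05 in evGFP arrays, a log2 fold change of 0.14 (-0.21 to 0.49). The evGFP array of replicate 3 was again the lowest. The dimmest one, at 4.11 to 4.26 in GFP-KLF2 and 4.04 to 4.23 in evGFP arrays, lay near the lower quartile of probe sets (log2 fold change 0.09). *Rxrb*, which encodes RXRβ, had 9.91, 9.84 and 9.81 in GFP-KLF2 and 9.96, 9.90 and 9.89 in evGFP arrays. Its log2 fold change was -0.06 (-0.23 to 0.11), and 0.04 after cyclic loess, so that it has no settled direction.

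The member enzymes showed no separation of the groups. *Rdh10*, whose enzyme turns retinol into retinal, had 8.11, 8.49 and 7.96 in GFP-KLF2 and 8.35, 8.38 and 8.13 in evGFP arrays. At its dimmer probe set it had 5.90, 6.43 and 5.77 in GFP-KLF2 and 6.38, 6.22 and 5.73 in evGFP arrays. The log2 fold changes were -0.10 (-0.44 to 0.23) and -0.07 (-0.58 to 0.43). In both groups replicate 3 was the lowest array at both probe sets. *Cyp26b1*, whose enzyme oxidises retinoic acid, had 5.54, 5.58 and 5.47 in GFP-KLF2 and 5.54, 5.54 and 5.25 in evGFP arrays, a log2 fold change of 0.09 (-0.15 to 0.32).

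**Figure D2:**
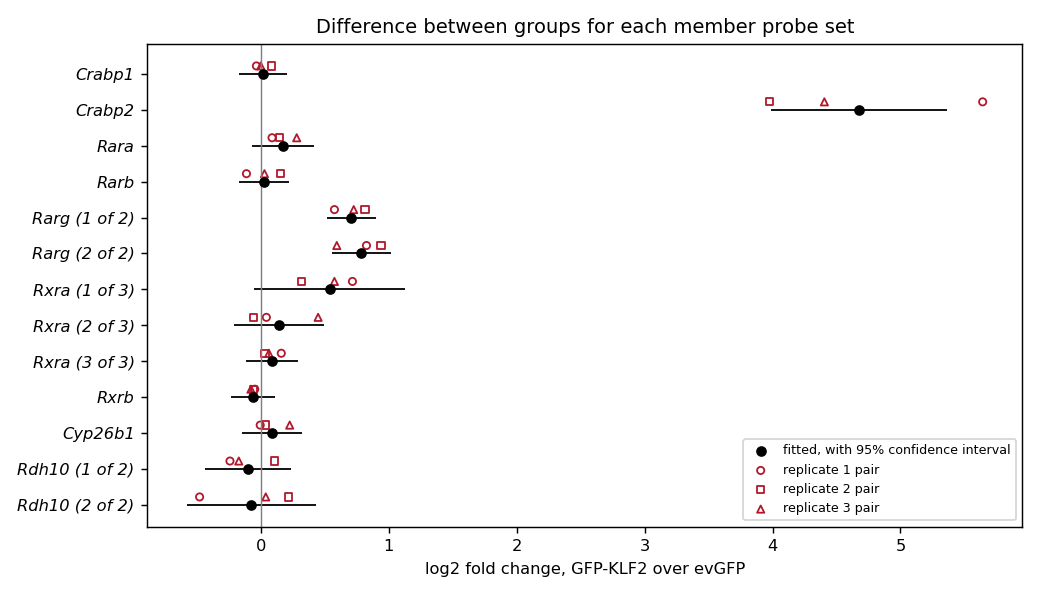
Log2 fold change of GFP-KLF2 over evGFP for each member probe set, with the fitted value and its 95% confidence interval in black and the difference within each replicate number as open red symbols. Crabp2 lies at 4.68 and the probe sets of Rarg at 0.71 and 0.79, while the intervals of the other 10 probe sets span 0.

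The arrays of 1 group correlated at 0.993 to 0.996 over all probe sets, and those of different groups at 0.982 to 0.99. Of 8 markers of CD8 T cells 1 rose, *Cd8b1* by 0.45, and their summed linear intensity was 50430 to 53660 in GFP-KLF2 and 46350 to 48840 in evGFP arrays. For *Cd5*, a T cell marker, the difference was -1.12 on the log2 scale and did not pass (adjusted p = 0.0493), while it passed in the blocked fit (adjusted p = 0.00916). Markers of fibroblasts and epithelia, cell types in which *Crabp2* is commonly found, summed to 474.5 to 516.2 in GFP-KLF2 and 428.9 to 490.5 in evGFP arrays, with 0 of 11 past the limma test and 0 at an unadjusted p under 0.05. Their log2 fold changes were -0.15 to 0.30, and *Col1a1*, *Col3a1* and *Krt18* lay near or under the lower quartile in both groups. For B cell markers the sums were 264.7 to 397 in GFP-KLF2 and 268.4 to 291.3 in evGFP arrays (0 of 5 passed by limma, 3 were higher at an unadjusted p under 0.05). For markers of myeloid and dendritic cells they were 1900 to 2557 in GFP-KLF2 and 3008 to 5078 in evGFP arrays. Of these 13 markers 1 fell, *Batf3*, which T cells also express (-1.12, adjusted p = 0.0406), and it did not pass without any one of GFP-KLF2 replicates 1, 2 and 3 or evGFP replicates 1 and 2 (adjusted p = 0.0747 to 0.0989), after cyclic loess (0.0598) or with an intensity trend and a robust prior (0.0746). The summed difference was that of *Batf3*, since the other 12 markers summed to 845.6 to 1035 in GFP-KLF2 and 803.2 to 985.2 in evGFP arrays, a sum taken after the values were seen. Of these 12, 7 had a mean of at least 6 in a group, among them *H2-Ab1* (7.67 in GFP-KLF2 and 7.52 in evGFP cells) and *Cd74* (7.19 in GFP-KLF2 and 7.40 in evGFP cells). *Cd68* averaged 6.78 in GFP-KLF2 and 6.35 in evGFP cells and did not pass (adjusted p = 0.049), though it did with the replicate block (0.0252).

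Outside the 9 members, 76 further genes of retinoid biology were measured, drawn up by role, and most did not pass. Of these 5 rose and 5 fell, 6.58% each, beside 6.22% and 8.35% of all 18194 genes, and their median log2 fold change was -0.004, against -0.008 for all genes. The count was 7 and 7 with the replicate block, which added *Tbl1x* (0.36) and *Kat2b* (0.37) to those that rose and *Pparg* (-0.53) and *Hdac3* (-0.32) to those that fell. With single arrays left out 3 to 5 rose and 3 to 5 fell, at 3 rises without GFP-KLF2 replicate 2 or evGFP replicate 1 or 2 and at 3 falls without either of those evGFP arrays. At an unadjusted p under 0.05 by limma 8 of the 76 were higher and 14 lower, beside 2190 and 3219 of all 18194 genes.

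**Figure D3:**
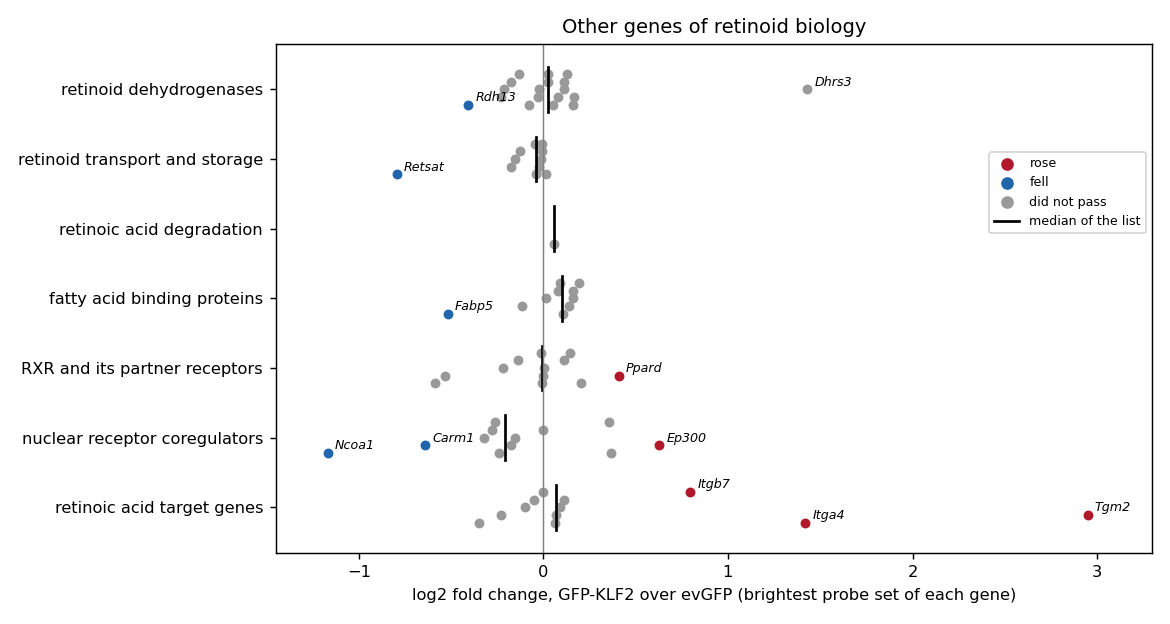
Log2 fold change of GFP-KLF2 over evGFP for each of the 76 measured genes of 7 retinoid lists, members left out. Each point is a gene by its brightest probe set, in red for genes that rose, blue for genes that fell and grey for the rest, and the black line is the median of the list. Tgm2 lies farthest to the right at 2.95 and Ncoa1 farthest to the left at -1.17.

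Most genes listed as retinoid dehydrogenases, which include the retinal reductase gene *Dhrs3*, did not pass the test. Of these 18 genes 0 rose by limma (1 was higher at an unadjusted p under 0.05) and 1 fell (3 were lower at that unadjusted p). Their median log2 fold change was 0.02, and 12 of them were below 6 in both groups. The other probe set of *Rdh12* was lower and passed (-0.67). The retinal dehydrogenases *Aldh1a1*, *Aldh1a2* and *Aldh1a3*, which make retinoic acid itself, averaged 3.35, 4.09 and 5.98 in GFP-KLF2 and 3.23, 4.04 and 5.82 in evGFP cells. *Rdh13*, a mitochondrial retinol dehydrogenase, fell by 0.41 on the log2 scale (adjusted p = 0.0203), but did not pass without any one of GFP-KLF2 replicates 1, 2 and 3 or evGFP replicates 1 and 2 (adjusted p = 0.0497 to 0.0699).

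*Dhrs3* encodes a retinal reductase that is itself known as a retinoic acid target. It had 6.07, 5.94 and 7.68 in GFP-KLF2 arrays, against 5.23, 5.2 and 4.96 in evGFP arrays. All GFP-KLF2 arrays were above all evGFP arrays, with replicate 3 far above the other two of its group. The log2 fold change of 1.43 did not pass (adjusted p = 0.0703), and it was 0.87 and passed without GFP-KLF2 replicate 3 (adjusted p = 0.00862).

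Genes of retinoid transport, storage and degradation held 1 change. Of 11 genes of transport and storage, 0 rose by limma (0 at an unadjusted p under 0.05) and 1 fell, with a median of -0.04. *Retsat*, which encodes a retinol saturase, had 5.87, 5.77 and 6.14 in GFP-KLF2 arrays, against 6.78, 6.77 and 6.62 in evGFP arrays, which is -0.79 in log2 terms with a standard error of 0.11 (adjusted p = 0.00579). Its second probe set also fell, by 0.58 (adjusted p = 0.034). *Cyp26a1*, the degrading enzyme whose promoter repeat is printed above, averaged 4.72 ± 0.10 in GFP-KLF2 and 4.66 ± 0.30 in evGFP cells (log2 fold change 0.06).

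In the fatty acid binding proteins, the family to which the CRABPs belong, *Fabp5* was the 1 of 10 that passed, and it fell. FABP5 can also bind retinoic acid and is known to carry it to PPARδ. *Fabp5* had 12.31, 11.97 and 12.20 in GFP-KLF2 arrays, against 12.70, 12.70 and 12.63 in evGFP arrays, with no overlap. The log2 fold change was -0.52 (standard error 0.10, adjusted p = 0.0186), and -0.54 at its second probe set (adjusted p = 0.0222). The brighter probe set did not pass without evGFP replicate 1 or 2 (adjusted p = 0.0649 and 0.0715). The other 9 genes of the family were below 6 in both groups, and the median of the 10 was 0.10.

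Of 12 further receptors, RXRγ and the partners of RXR, 1 rose and 0 fell by limma (1 was lower at an unadjusted p under 0.05), with a median of -0.01. These counts use brightest probe sets, and with probe sets averaged 2 rose. Of the other *Nr4a2* probe sets, at 0.06 to 1.15, 2 passed. The other probe set of *Vdr* (-0.53) passed, as did 1 of the others of *Thra* (-0.32 to -0.26). *Ppard*, which encodes PPARδ, had 6.94, 6.88 and 6.97 in GFP-KLF2 arrays, against 6.42, 6.57 and 6.59 in evGFP arrays. Its log2 fold change of 0.41 (adjusted p = 0.0188) did not pass without any one of GFP-KLF2 replicates 1, 2 and 3 or evGFP replicates 1 and 2 (adjusted p = 0.0485 to 0.0668). A second probe set had 0.11 (adjusted p = 0.435). For *Pparg*, which encodes PPARγ, the difference was -0.53 on the log2 scale (adjusted p = 0.567, against 0.0293 in the blocked fit).

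Coregulators, which nuclear receptors recruit to chromatin, passed in both directions, 1 up and 2 down of 12, beside 6.22% and 8.35% of all genes. Their median log2 fold change was -0.21. All 12 had a mean of at least 6 in a group. Among probe sets with a mean of at least 6, 11.1% were higher and passed and 17% were lower and passed. Nothing is read from the counts of coregulators. The counts depended on the setting, with 3 up with the replicate block, cyclic loess, the trend and robust prior or a mean of at least 6, with 2 up without evGFP replicate 3, and with 4 down at that mean and 5 down with probe sets averaged. *Ncoa1*, a coactivator also called SRC-1, had 7.71, 7.22 and 7.58 in GFP-KLF2 arrays, against 8.97, 8.64 and 8.40 in evGFP arrays. Its log2 fold change was -1.17 (standard error 0.18, adjusted p = 0.00751), and -1.13 at a second probe set (adjusted p = 0.0055). Its remaining probe set, dim at 3.76 in GFP-KLF2 and 3.97 in evGFP cells, did not pass. *Carm1*, an arginine methyltransferase that acts with such coactivators, fell by 0.64 on the log2 scale (adjusted p = 0.00489), and the acetyltransferase gene *Ep300* rose by 0.63 (adjusted p = 0.0046). *Carm1* and *Ep300* passed with each array left out. The other probe set of *Ncoa3* (-0.61) was lower and passed, as did 1 of the others of *Med1* (-0.69 to -0.12).

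Among 12 genes known as targets of retinoic acid in other settings, 3 rose and 0 fell by limma (2 were lower at an unadjusted p under 0.05). Of all genes 6.22% rose and 8.35% fell, and the median of the 12 was 0.07. The rise of *Itga4* and *Itgb7* in these arrays was known when the list was drawn up, so nothing is read from the count. *Tgm2*, which encodes tissue transglutaminase, had 10.60, 9.12 and 7.98 in GFP-KLF2 arrays, against 6.62, 6.42 and 5.81 in evGFP arrays. The groups did not overlap, and replicate 1 was the highest of its group, as it was for *Crabp2*. The log2 fold change was 2.95 (standard error 0.58, adjusted p = 0.0196). It did not pass without GFP-KLF2 replicate 2 or without any one of the evGFP arrays (adjusted p = 0.0528 to 0.0648), nor with an intensity trend and a robust prior (adjusted p = 0.0624).

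Of the 5 other *Tgm2* probe sets, 3 rose by 4.07 to 4.85 (adjusted p = 0.00332 to 0.00636) and 2, at 1.01 and 0.21, did not pass. The 3 and the one at 0.21 are of a type that can also bind transcripts of other genes. *Itga4* and *Itgb7* encode the chains of integrin α4β7, the receptor for homing to the gut. *Itga4* rose by 1.42 (adjusted p = 0.0029), with 0.01 to 1.63 at its 4 other probe sets, of which 2 passed. *Itgb7* rose by 0.80, with 12.58, 12.54 and 12.60 in GFP-KLF2 arrays and 11.79, 11.80 and 11.73 in evGFP arrays. *Ccr9*, which encodes the chemokine receptor that retinoic acid induces for the small intestine, averaged 4.44 in GFP-KLF2 and 4.38 in evGFP cells (log2 fold change 0.06, adjusted p = 0.747). *Hoxb1* and *Stra8*, targets in embryos and germ cells, averaged 3.00 and 5.74 in GFP-KLF2 and 3.10 and 5.63 in evGFP cells.

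The 6 genes whose values over the 6 arrays were most like those of *Crabp2* were taken by Pearson's r among 10510 genes with a mean of at least 6. They were *Vcl* (r = 0.999), *Gse1* (0.998), *Emp3* (0.998), *Unc13d* (0.998), *Lmbr1l* (0.997) and *Kcnn4* (0.997), with log2 fold changes of 1.65, 0.93, 0.88, 0.89, 0.33 and 0.86. *Vcl* encodes the adhesion protein vinculin, *Unc13d* a protein of granule release and *Kcnn4* a calcium-activated potassium channel. The points are arrays of 2 groups, so that the difference between the groups makes up most of each r, and 442 of the genes had an r over 0.95. The probe sets of *Rarg* correlated with *Crabp2* at 0.954 and 0.949, the brightest one of *Rxra* at 0.696, its others at 0.408 and 0.570, and those of the other member genes at -0.566 to 0.552.

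**Figure D4:**
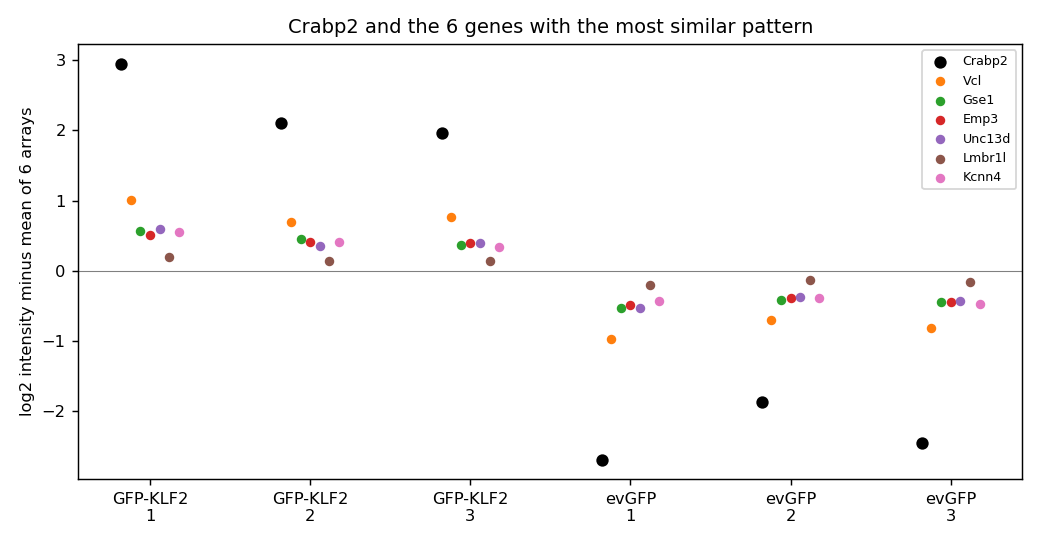
Log2 intensity of Crabp2 (black) and of the 6 genes with the highest correlation to it, each minus its own mean over the 6 arrays, by array. Crabp2 spans the widest range, and in all 7 genes every GFP-KLF2 array lies above 0 and every evGFP array below it.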

How the data were processed

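RNA of sorted cells was hybridised to Affymetrix mouse genome arrays. The authors computed intensity values from them by RMA and compared groups with limma (versions not given in the sources used here). The deposited intensities are linear. After log2 transformation and removal of 64 control probe sets, 45037 were fitted with limma 3.58.1 in R 4.3.3 (with the package data.table, version 1.17.8), 1 constant per group, 2-sided, with Benjamini-Hochberg adjustment. The methods print the threshold as 0.046% and describe it as 2 sigma, which corresponds to 0.046, so calls here use 0.046, with the percentage as printed among the alternatives. Genes are given by their brightest probe set. All probe sets of members, list genes that passed or changed at least 2-fold, and the 6 genes most like *Crabp2* are named, and other genes are named as examples after their values were seen. The members and lists were chosen with earlier results of these data known. The signal of dim probe sets limits what can be seen, as do 3 arrays per group.

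Arrays with the same replicate number in the labels deviated alike from their group means (r = 0.33, 0.44 and 0.47, against -0.38 to 0.06 for others), so they were treated as paired in the fit with a replicate block. The further settings tried were thresholds of 0.05 and 0.00046 on the adjusted p, a mean log2 of at least 6, median centring, cyclic loess, an intensity trend with a robust prior, an average over each gene's probe sets, and leaving out each array. Gene names come from the array's annotation, updated by Entrez number for 34741 of 34945 probe sets with 1 gene.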

Additional observations from a re-analysis of the deposited data

How the results depend on the processing

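*Crabp2* and both probe sets of *Rarg* were higher and passed in every alternative run except the adjusted p threshold of 0.00046, where 1 member probe set, that of *Crabp2*, passed, and 0 other retinoid genes rose or fell. With each gene's probe sets averaged, 8 other retinoid genes fell. With single arrays left out 3 member probe sets were higher and passed each time and 0 were lower, while 3 to 5 other retinoid genes rose and 3 to 5 fell. The replicate block gave 4 member probe sets and 7 rises and 7 falls, and apart from the genes named above it changed the calls of *Cd247* and *Cd68* among the marker genes. Of 178 values of member probe sets under alternatives, 165 kept their direction and side of the threshold. All these runs use the arrays on which the members were picked, so no support for a member is drawn from them. The log2 fold change of *Rxrb* was 0.039 after cyclic loess. With single arrays left out these crossed 0: *Crabp1* (-0.036 to 0.056), *Rarb* (-0.023 to 0.074), the second probe set of *Rxra* (-0.036 to 0.25), *Cyp26b1* (-0.010 to 0.14) and the probe sets of *Rdh10* (-0.25 to 0.010 and -0.27 to 0.060). Of all probe sets that passed, 58% were higher in GFP-KLF2 after cyclic loess and 42.7% without it. With single arrays left out, at the same threshold as for these shares, 48.3% to 51.6% of the probe sets that passed were higher. At the adjusted p threshold of 0.00046, with all arrays kept, 0.122% of probe sets passed, and 92.7% of those were higher. The causes were not tested. Dim probe sets such as those of *Crabp1* and *Rarb* limit what can be seen.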
